A study of Capsicum annuum with 78 samples.

Results

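The leaves described here were sampled 24 h after pepper plants had been sprayed with ethephon, and they were compared with leaves of plants sprayed with distilled water (mock) and sampled at the same time. All 3 ET libraries and all 3 mock libraries of 24 h were used, which are 6 of the 78 libraries of the series, and every gene of the count table was considered. All plants were Capsicum annuum cv. Bukang, 6 weeks old and at the stage of 6 true leaves, grown with 16 h of light and 8 h of dark. ET plants received 5 mM ethephon, a compound that breaks down in plant tissue and releases ethylene. Each library was made from poly-(A) RNA of leaves pooled from 4 plants, and the labels name the 3 libraries of a group as biological replicates. The other groups of the series, used here only where a result needed them, were ET and mock at 1, 3, 6 and 12 h, mock at 0 h, and salicylic acid (SA), methyl jasmonate (MeJA) and abscisic acid (ABA) at 24 h. ET and mock plants were treated and kept apart in the growth chamber, so an effect of ethephon and an effect of the separate incubation cannot be told apart. In whole leaves, fewer cells of a type and less RNA per cell cannot be told apart either.

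Ethylene is a gaseous hormone. In Arabidopsis it binds receptors in the membrane of the endoplasmic reticulum, which silences a kinase that otherwise blocks the pathway. Transcription factors then switch on genes, among them those of the ERF factors. In leaves ethylene is known for promoting senescence and abscission and for a part in defence, and together with fruit ripening these are its best studied effects. The genes of the table carried identifiers of the CM334 annotation v.1.6, and none of them could be paired with a gene name, since 0 of 35884 matched the RefSeq entries of the other pepper assembly that was used for the search. Receptors, ERF factors, biosynthesis genes and leaf markers could therefore not be told from other genes, and the results are given for groups of genes defined by level, direction and time. Only 4 genes are named, by identifier.

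The ET libraries of 24 h held 6612602 to 7187505 counts and the mock libraries 6778012 to 8054316. The genes detected numbered 20790 to 21472 in ET libraries and 20861 to 21542 in mock libraries. A floor of 3 counts lay between 0.417 and 0.454 CPM (counts divided by the library total and scaled up to the usual common size) in ET libraries and between 0.372 and 0.443 CPM in mock libraries, and it covers counting error only. Replicates differed by more than sampling noise, with a chi-square per degree of freedom between 3.05 and 6.14 for the ET pairs and between 4.89 and 12.66 for the mock pairs, where the higher values were the pairs with mock replicate 3. Between an ET and a mock library the lowest value was 41.61. In a principal component analysis of the 6 libraries, PC1 held 71.4% of the variance and placed the ET libraries at 46.6, 48.1 and 50.7 and the mock libraries at -46.2, -48.7 and -50.6. PC2, with 10.8%, set mock replicate 3 at 33.3, apart from mock replicates 1 and 2 at -18.0 and -17.0. The main counts are given below with and without mock replicate 3.

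Nearly as many genes were higher as lower after ethephon, and most differences were small. Of 18757 genes tested, 8967 (47.8%) differed between ET and mock at 24 h, 4535 of them higher in ET (24.2%) and 4432 lower (23.6%; edgeR, quasi-likelihood F test, false discovery rate of Benjamini and Hochberg under 0.05, called the adjusted p below). The median log2 fold change was 0.77 among the higher genes and -0.83 among the lower genes, against 0.01 over all genes tested. When the log2 fold change also had to reach 1 in size, 1499 genes rose (7.99%) and 1684 fell (8.98%). The other 5784 genes that passed the test differed by less, and 1925 of them by less than 0.5 on the log2 scale. The balance between higher and lower genes depends on the scaling of the libraries. By total counts alone, without the TMM correction for composition, the median over all genes was 0.11, and 5376 genes were higher and 3630 lower.

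Most of these genes separated the groups library by library. On the TMM-scaled CPM, all 3 ET libraries lay above all 3 mock libraries for 4843 genes (25.8% of those tested) and below them for 4666 (24.9%), where 24.2% and 23.6% passed the test in that direction. On the CPM of total counts the numbers were 5675 above (30.3%) and 3760 below (20.05%). Of the genes that passed the test, 91.9% of the higher and 89.9% of the lower ones had groups that did not overlap. The calls and the separation come from the same 6 libraries, so this is a description and adds no support to the calls. Without mock replicate 3, 4090 genes were higher and 4134 lower, 1436 rose and 1574 fell by 1 or more on the log2 scale, and 85.6% of the 8967 calls were kept in the same direction. In all 6 fits that left out 1 library of 24 h, 71.3% of the calls were kept.

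**Figure D1:**
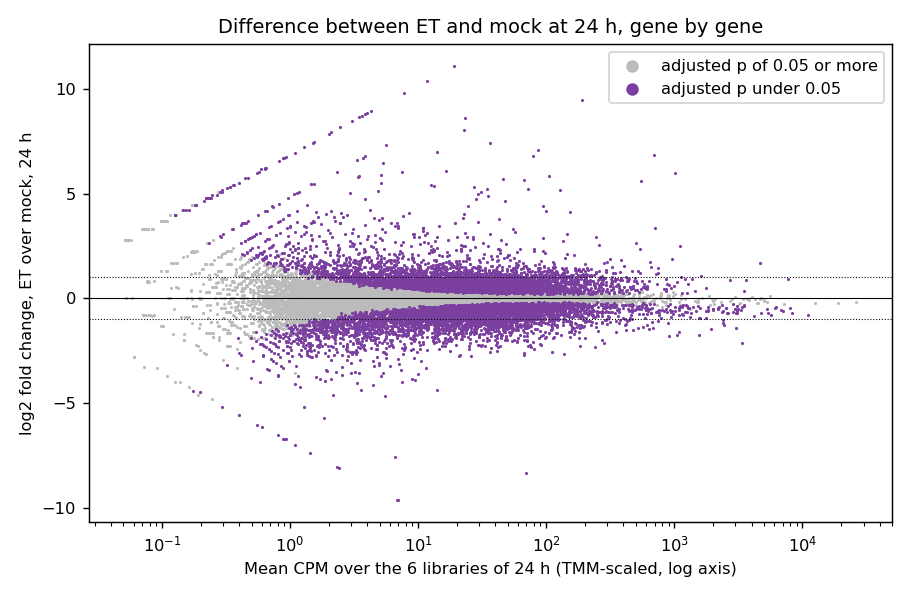
The log2 fold change of ET over mock at 24 h is plotted for each gene tested against its mean CPM over the 6 libraries on a log axis, purple where the adjusted p was under 0.05, and dotted lines mark a log2 fold change of 1 in either direction. The slanting rows of points on the left are genes with 0 or few counts in one group, and 41 genes with a mean under 0.05 CPM are not drawn.

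A gene that did not pass the test was not thereby shown to be unchanged. For 6212 of the 9790 genes that did not pass (63.5%), the 95% interval of the log2 difference lay between -1 and 1. For the other 3578 genes the interval reached beyond 1 in at least 1 direction, so it included a difference of that size.

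Whether a gene passed depended strongly on its level. The genes were divided by mean CPM into 5 classes of equal size. In the lowest class (median 1.31 CPM), 11.5% were higher in ET and 11.2% lower, while in the highest class (median 91.6 CPM) 34.1% were higher and 34.9% lower. The median standard error of the log2 difference was 0.54 in the lowest class and 0.10 in the highest. The share of genes changed by 1 or more on the log2 scale went the other way, with 11.0% higher and 10.7% lower in the lowest class and 7.44% higher and 7.41% lower in the highest.

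**Figure D2:**
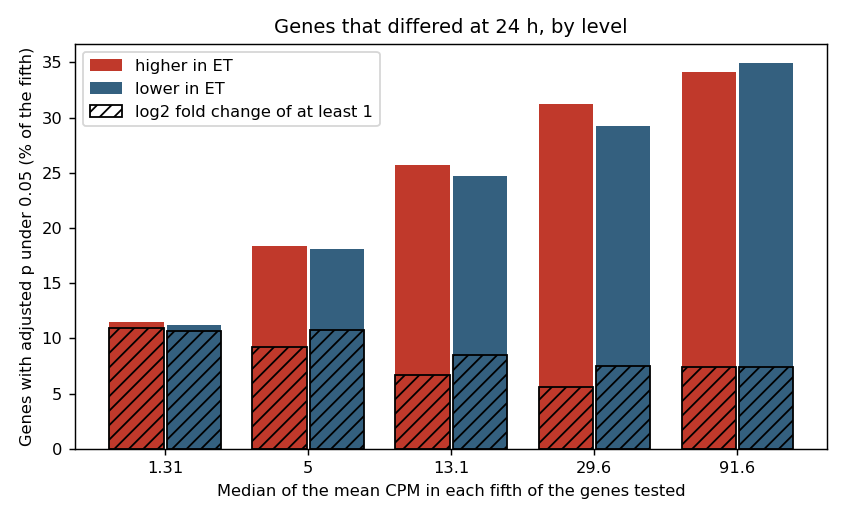
Bars give the percentage of genes with an adjusted p under 0.05 in 5 equal classes of the 18757 genes tested, ordered by mean CPM over the 6 libraries, red for genes higher and blue for genes lower in ET, and hatching marks those that changed by 1 or more on the log2 scale. The share that passed climbs from 22.7% in the lowest class to 69.1% in the highest, while the hatched part does not.

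The most abundant transcripts were more often lower than higher after ethephon. Among the 100 genes with the highest mean CPM, 57 were lower in ET and 9 higher, of which 7 and 2 changed by 1 or more on the log2 scale. Over all genes 23.6% were lower and 24.2% higher. Their median absolute log2 difference was 0.46. Among the 20 most abundant genes 11 were lower and 1 was higher. The 10 most abundant genes of a library took 9.01% to 10.2% of its counts in ET and 10.2% to 11.6% in mock. Without mock replicate 3 the split among the 100 genes was 64 lower and 7 higher, and without mock replicate 1 it was 48 and 9. With the 6 libraries of 24 h alone the split was 48 and 7, and without mock replicate 1 among these it was 35 and 7. By total counts alone it was 54 and 11. Against mock leaves of 0 h in place of those of 24 h it was 32 lower and 20 higher.

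Very large changes were more often rises. A log2 fold change of at least 3 was reached by 200 genes that rose and by 66 that fell, and one of at least 5 by 76 and 18. Without mock replicate 3 the numbers at 3 were 229 and 73. Without ET replicate 1 they were 190 and 118. With the 6 libraries of 24 h alone they were 124 and 43, with at least 10 counts in every library 16 and 0, and with no filter 251 and 151. Such fitted values are poorly fixed where one group has hardly any counts. Of the 200 genes that rose this much, 56 had 0 counts in all mock libraries of 24 h and 53 had 1 to 3 counts in total, and of the 66 that fell, 16 had 0 counts in the ET libraries and 17 had 1 to 3. At least 10 counts in each library of the lower group were found for 24 of the genes that rose and for 0 of those that fell. The genes that rose had a median of 3.84 CPM in ET, and the genes that fell a median of 3.75 CPM in mock.

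Genes seen in 1 group only were few. At least 3 counts in every ET library and 0 counts in every mock library of 24 h were found for 34 genes, and the opposite held for 25 genes. These genes were chosen by their counts at 24 h and are given as a description. Against the floor of 3 counts per library, the largest of these levels was at least 87.7-fold higher in ET, at 35.5 CPM of total counts, and at least 27.9-fold lower in ET, with 12.04 CPM of total counts in mock. At other times, 0 h included, 27 of the 34 genes had at least 1 count in at least 1 mock library. Those 27 were therefore not without counts in mock leaves at every time. All 34 had counts in ET leaves at 12 h, against 16 in mock leaves at 12 h. Of the 25 genes seen only in mock at 24 h, 14 had counts in ET leaves at 12 h and 24 in mock leaves. With 1 library left out these counts grew, by construction, to between 54 and 65 genes in ET only without 1 mock library and to 44 genes in mock only without ET replicate 1. Without mock replicate 1 or 2 they were 51 and 39 genes in mock only.

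The largest rise among genes with at least 10 counts in each of the 6 libraries and no overlap between the groups was that of CA.PGAv.1.6.scaffold1231.6. It had 1289, 1207 and 1630 CPM in the ET libraries, against 13.6, 9.65 and 12.9 CPM in the mock libraries. Every ET library was far above every mock library. Its log2 fold change was 6.84 with a standard error of 0.31, or 115-fold (adjusted p = 3.58e-18, edgeR). Only 23 genes that passed the test had a larger fitted rise, all with fewer than 10 counts in at least 1 library or overlapping groups.

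The rise of CA.PGAv.1.6.scaffold1231.6 built up over the first 12 h. Its level in ET leaves was 23.3 ± 9.17 CPM at 1 h and 304 ± 28.0 CPM at 3 h (SD, n = 3), and it went on to 1472 ± 237 CPM at 6 h, a highest mean of 2417 ± 393 CPM at 12 h, and 1376 ± 224 CPM at the end. In mock leaves its mean stayed between 12.05 CPM at 24 h and 38.5 CPM at 6 h. The log2 fold change came to 0.58 at 1 h, where it did not pass the test, and to 3.48, 5.26 and 6.92 at the next 3 times. The difference at 24 h was larger than that at 6 h (adjusted p = 0.00188, edgeR's test of the difference of differences), and the comparison with 12 h gave an adjusted p of 0.918. With the other hormones at 24 h, on CPM scaled within the 15 libraries of 24 h, it stood at 1261 ± 210 in ET, 64.7 ± 2.22 in SA, 11.0 ± 3.67 in MeJA and 11.1 ± 1.37 in ABA, with 11.1 ± 1.93 in mock. ET was higher than SA by 4.29 on the log2 scale with a standard error of 0.15 (adjusted p = 6.91e-15, edgeR).

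The second gene that rose, CA.PGAv.1.6.scaffold1656.7, had the largest fold change among genes whose difference was greater at 24 h than at each earlier time, with a mean of at least 10 counts and no overlap between the groups. It had 25.6, 16.1 and 20.9 CPM in the ET libraries, against 2.54, 3.02 and 1.72 CPM in the mock libraries. The log2 fold change was 3.10 with a standard error of 0.37 (adjusted p = 1.71e-08, edgeR). At 1, 3, 6 and 12 h it was 0.33, 0.31, 0.93 and 1.52, of which only the last passed the test (adjusted p = 0.000717, edgeR). ET leaves held 6.96 ± 1.43 CPM at 12 h and 20.9 ± 4.73 at 24 h (SD, n = 3), while mock leaves held 2.39 ± 1.42 and 2.43 ± 0.66. The gene was also higher in SA leaves of 24 h than in mock, and ET exceeded SA by 1.04 on the log2 scale with a standard error of 0.22 (adjusted p = 0.000443, edgeR).

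**Figure D3:**
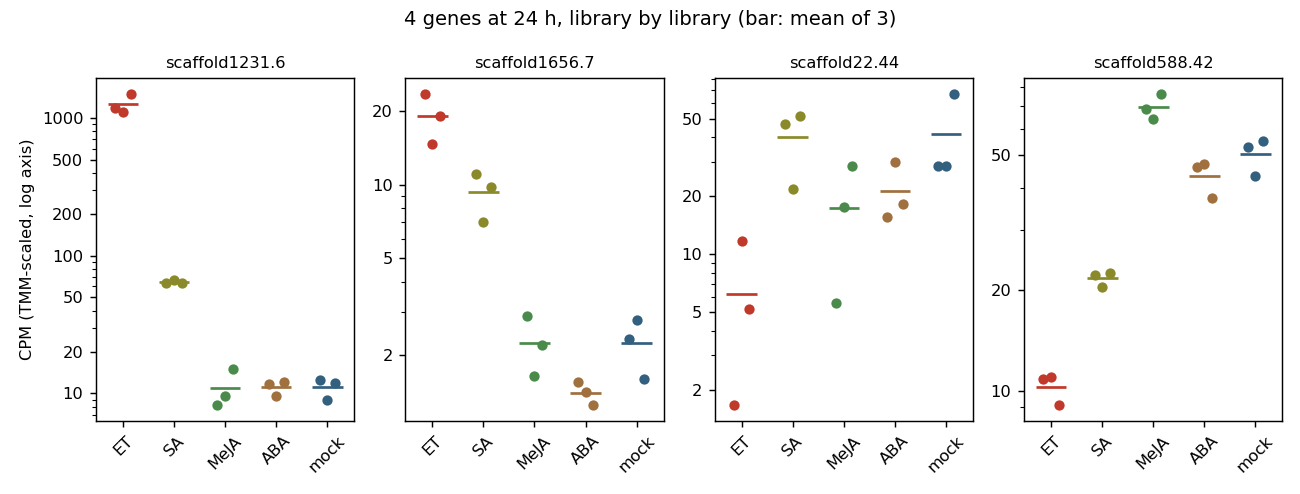
Each dot is the CPM of 1 library of 24 h on a log axis, scaled within the 15 libraries of that time, for the 4 named genes after ET, SA, MeJA, ABA and mock treatment, and bars are means of 3. ET is the highest group in both panels on the left and the lowest in both on the right, where 1 MeJA library of scaffold22.44 falls among the ET libraries.

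By the same rule the largest fall was that of CA.PGAv.1.6.scaffold22.44, and it was a variable gene. It had 1.81, 12.9 and 5.64 CPM in the ET libraries, against 31.3, 31.0 and 72.4 CPM in the mock libraries. No overlap between the groups was required by the rule, and the ET libraries differed widely among themselves. The log2 fold change was -2.76 with a standard error of 0.48 (adjusted p = 1.5e-05, edgeR). Without ET replicate 2 it was -3.66 and without mock replicate 3 it was -2.22. The fall was present from the first sampling, with log2 fold changes of -2.52, -2.83, -1.18 and -2.56 at the 4 earlier times, and the tests of a different difference at 24 h gave adjusted p values between 0.0954 and 0.96 (edgeR). Against mock leaves of 0 h, in a fit of all 78 libraries, the log2 fold change was -1.43 (adjusted p = 0.0278, edgeR), and that contrast was not run with a library left out. With mock leaves of 24 h as the reference, the adjusted p lay between 7.36e-06 and 0.000482 when 1 library was left out.

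The second gene that fell, CA.PGAv.1.6.scaffold588.42, was chosen like the second that rose and differed from mock more at 24 h than at each earlier time. It had 11.8, 12.1 and 9.92 CPM in the ET libraries, against 57.6, 47.1 and 59.3 CPM in the mock libraries, with narrow spread in both groups. The log2 fold change was -2.27 with a standard error of 0.15 (adjusted p = 1.78e-14, edgeR). At 1 and 3 h the log2 differences were -0.13 and -0.23 and did not pass the test, and at 6 and 12 h they were -1.16 and -1.70. Most of the change in level over these times was in mock leaves. ET leaves had 17.1 ± 2.06 CPM at 1 h and 11.3 ± 1.19 at 24 h, whereas mock leaves had 18.6 ± 2.11 and 54.7 ± 6.64 (SD, n = 3). Against mock leaves of 0 h the log2 fold change of the ET leaves of 24 h was -0.83. SA leaves of 24 h lay between ET and mock, and ET was lower than SA by a log2 fold change of -1.06 with a standard error of 0.14 (adjusted p = 3.62e-06, edgeR).

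**Figure D4:**
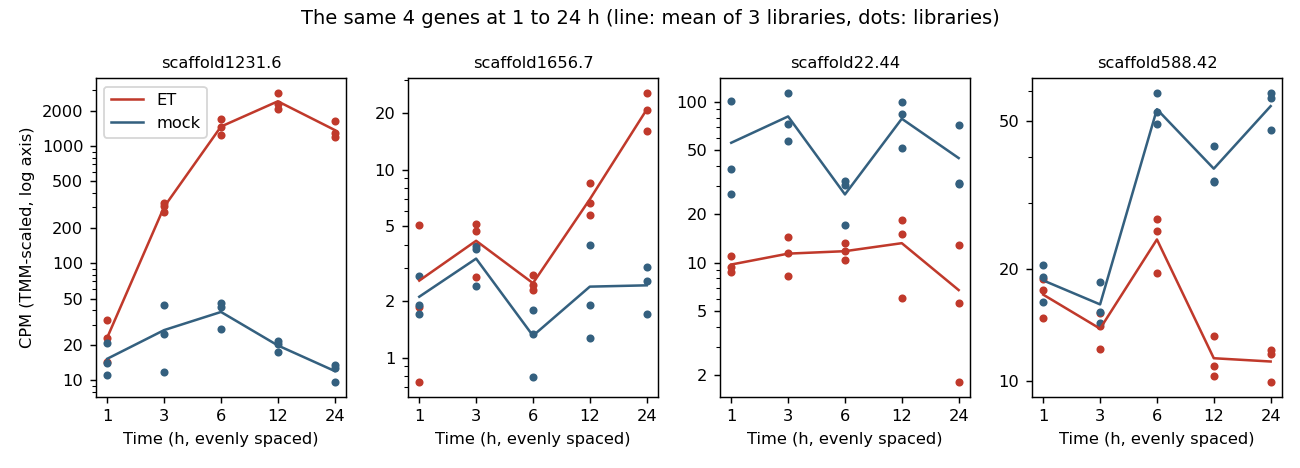
CPM on a log axis, scaled within the 30 ET and mock libraries, is plotted at 1, 3, 6, 12 and 24 h for the 4 named genes, with dots for libraries and lines for means of 3, red for ET and blue for mock. In scaffold588.42 the mock line rises after 3 h while the ET line ends at 11.3 CPM, and in scaffold22.44 the lines are apart from 1 h on.

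Comparison with the earlier times asks how much of the response at 24 h had been there before. The ET and mock libraries of each time are separate, so these comparisons share no library, only the scaling and the estimate of spread. At 12 h, 10902 genes (58.1%) passed the test, and 6398 genes passed in the same direction at both times, which is 71.4% of the calls at 24 h and 58.7% of those at 12 h. A further 417 genes passed at both times in opposite directions, 4.65% of the calls at 24 h. Of the calls at 24 h, 41.7% were also found in the same direction at 1 h, 53.7% at 3 h and 67.0% at 6 h, and at those times 36.7%, 45.7% and 52.6% of all genes passed in either direction. Across the 18757 genes the Pearson correlation of the log2 fold change at 24 h with that at 1, 3, 6 and 12 h was 0.48, 0.6, 0.654 and 0.706, as a description, since genes are not independent replicates.

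The difference itself changed with time for many genes. It was not the same at 24 h as at 12 h for 4355 genes (23.2%), and it was nearer to 0 at 24 h for 3071 of them and further from 0 for 1284. Against 6 h, 3909 genes (20.8%) changed, 2258 nearer and 1651 further. Against 3 h it was 4951 genes (26.4%), 2341 nearer and 2610 further, and against 1 h 4827 genes (25.7%), 1670 nearer and 3157 further (adjusted p under 0.05, edgeR's test of the difference of differences). Without mock replicate 3 the difference changed for 3645 genes against 12 h, 3367 against 6 h, 4335 against 3 h and 4447 against 1 h. By the counts of all 6 libraries the difference from mock at 24 h was on balance smaller than at 6 and 12 h and larger than at 1 h.

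Genes with large changes at 12 h were on balance nearer to mock at 24 h. Of 2280 genes that had risen by 1 or more on the log2 scale at 12 h, with a median of 1.76, 58.6% passed the test as higher at 24 h. Their median at 24 h was 0.90. Of all genes tested, 24.2% passed as higher at 24 h and 23.6% as lower. The difference was significantly lower at 24 h for 1045 of them (45.8%) and significantly higher for 16. Of 2392 genes that had fallen as much at 12 h, with a median of -1.47, 67.9% passed the test as lower at 24 h. Their median at 24 h was -0.96, and the difference had moved significantly towards or past 0 for 828 (34.6%). These genes were chosen by their values at 12 h, which by itself favours smaller values at another time. At 24 h 76 of the genes that had risen at 12 h passed the test as lower than mock, and 22 of those that had fallen passed as higher.

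**Figure D5:**
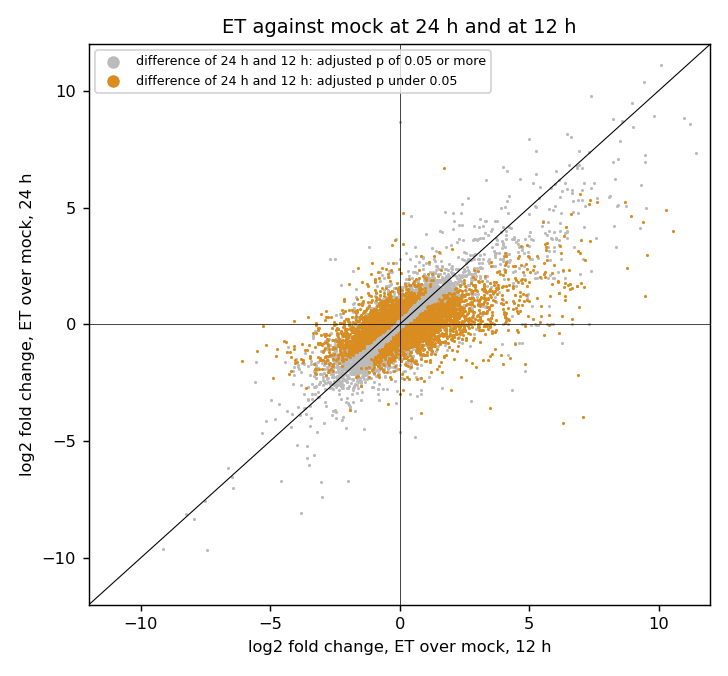
For each of the 18757 genes the log2 fold change of ET over mock at 24 h is plotted against that at 12 h, orange where the 2 differences differed at an adjusted p under 0.05, with the diagonal marking equal values. The cloud of points runs along the diagonal, and on the right, among genes raised at 12 h, most orange points lie below it.

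A part of the response persisted through the whole day. In ET leaves 992 genes were higher than mock at all 5 times and 1509 were lower. A log2 fold change of at least 1 at every time was reached by 243 genes that rose and by 307 that fell, and their median log2 fold change at 24 h was 2.37 and -1.68. In contrast, 141 genes with a log2 difference above 0 at 1, 3, 6 and 12 h, and 82 with one below 0, were nearer to mock at 24 h. This held against each of these times by 4 tests, which all use the same 6 libraries of 24 h. Of these genes, 30 and 7 still passed in the same direction at 24 h. The 141 and 82 genes were not counted again with a library left out.

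Genes further from mock at 24 h than at every earlier time had mostly moved in mock leaves, relative to the median gene. The difference at 24 h was greater than at 1, 3, 6 and 12 h, each by its own test, for 186 genes that were higher and 78 that were lower than mock. Their median log2 fold change was 1.04 and -1.02, and 47 and 22 of them had passed the test at no earlier time. Between 12 and 24 h the median log2 change of the 186 genes was -0.08 in ET leaves and -0.80 in mock leaves. In mock, 159 of them were lower at 24 h than at 12 h (adjusted p under 0.05, edgeR), and in ET 61 were lower and 34 higher. For the 78 genes the median was -0.05 in ET leaves and 0.69 in mock leaves. By the same test 59 of them were higher in mock at 24 h, and in ET 25 were lower and 16 higher. Over all genes the medians were -0.02 in ET and -0.04 in mock. Of all 18757 genes, 4626 were lower and 4266 higher in mock at 24 h, and 3516 were lower and 3585 higher in ET. The size of such changes within a treatment depends on the scaling, since by total counts, on log2(mean CPM + 0.1), the medians of all genes were -0.44 in ET and -0.42 in mock. On that scale they were -0.51 in ET and -1.19 in mock for the 186 genes, and -0.48 in ET and 0.29 in mock for the 78. These values belong to the contrasts that chose the genes and are given as a description. The number of such genes rests on single mock libraries, with 341 higher and 95 lower genes without mock replicate 2, and 123 and 56 without mock replicate 3. By total counts alone it was 283 higher and 30 lower.

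Compared directly at 24 h, without the mock libraries in the contrast, ET leaves differed from SA leaves in 7575 of 17474 genes (43.4%), from ABA leaves in 8203 (46.9%) and from MeJA leaves in 8707 (49.8%; adjusted p under 0.05, edgeR). Without mock replicate 3 in the estimate of spread the numbers were 8021, 8583 and 9114. With 1 library of the contrast left out they were lower, at 6488 to 7016 for SA, 7183 to 7541 for ABA and 7790 to 8167 for MeJA. DESeq2 gave 7075, 7636 and 8214. A log2 fold change of at least 1 was reached by 2106 genes against SA, 2798 against ABA and 3446 against MeJA. Against SA, 728 of these were higher in ET and 1378 lower. Against ABA there were 1272 higher and 1526 lower, and against MeJA 1606 and 1840. The 3 contrasts share the ET libraries, and whether the counts differ from each other was not tested.

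Genes that rose or fell more often had a neighbour that moved the same way than genes in general did. Most had no such neighbour, and no test of this was run. An identifier gives a scaffold and a number on it, and genes of one scaffold whose numbers follow each other were taken as neighbours, on the assumption that the numbers follow the order along the scaffold. The genes tested lay on 1902 scaffolds, and 15504 of them had a tested neighbour. Of the 1229 genes with a tested neighbour that rose by 1 or more on the log2 scale, 19.7% had a neighbour that rose as well, against 11.3% of all 15504 genes with a tested neighbour, and 10.3% had one that fell, against 12.7%. Of 1374 such genes that fell, 21.4% had a neighbour that fell and 9.10% one that rose. Both genes rose in 131 of 11455 neighbouring pairs and both fell in 158, while in 129 one rose and the other fell. The longest run was 5 genes in either direction, and runs of 3 or more held 50 genes that rose and 62 that fell. With at least 10 counts in every library the share was 13.1% of the genes that rose against 7.85% of all genes with a tested neighbour, and 13.9% of those that fell against 9.63%. Neighbouring genes can be copies of one another, and how the counting treated reads that fit several copies is not given in the sources used here, so the part of shared reads was not tested.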

How the data were processed

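The authors cut adapters with cutadapt 1.15, trimmed with Trimmomatic 0.38, aligned the reads to CM334 v.1.6 by HISAT2 and obtained gene counts by HTSeq 0.11.2 (versions per the submitters' processing notes; that of HISAT2 and the strand setting are not given in the sources used here). The deposited values are raw counts without normalization. Reads came from Bukang and the genome from CM334, which can lower the counts of diverged genes.

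Groups came from the sample titles. The joint model held 30 libraries, ET and mock at 1, 3, 6, 12 and 24 h (edgeR 4.0.16 in R 4.3.3: filterByExpr, TMM, glmQLFit and glmQLFTest), and p was adjusted within each contrast over all genes tested. Hormones were compared within the 15 libraries of 24 h. CPM are TMM-scaled unless said otherwise. TMM assumes that most genes do not change. Standard errors came from the F statistic, and log2(CPM + 1) entered the principal components. The code was tested on simulated data in which few genes changed, which does not check the scaling where many genes change.

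Named were, in each direction, the called gene of largest fold change with at least 10 counts in each of the 6 libraries and no overlap of groups, and the one with a mean of at least 10 counts, no overlap and a difference further from 0 at 24 h than at every earlier time by 4 tests. Alternatives were RLE scaling, DESeq2 1.42.0, no filter, at least 10 counts in every library, the replicate block, each library left out, other sets of libraries, thinning and mock 0 h as the reference. Total-count and upper-quartile scaling, robust spread, the 24 h libraries without 1 mock library and left-out libraries for genes seen in 1 group were added after seeing the data. The comparison and its gene groups were chosen with earlier results of these data known.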

Additional observations from a re-analysis of the deposited data

Results flagged for a closer look

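The difference between ET and mock was found, by a test of the change itself, to depend on the time. The difference at 24 h was therefore set against that at each earlier time. It differed from the difference at 1 h for 4827 genes, at 3 h for 4951 genes, at 6 h for 3909 genes and at 12 h for 4355 genes of 18757 tested (adjusted p under 0.05, edgeR's test of the difference of differences). ET and mock leaves were incubated apart, so a response that changes with time and a drift between the incubations cannot be told apart. The paper gives no clock times, so time since spraying and time of day cannot be told apart either. With 3 libraries a group, single outlying libraries were not tested for.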

How the results depend on the processing

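A count was taken as changed when it moved by more than 1.5 times, and a named gene when its sign turned or its adjusted p was no longer under 0.05. Of 583 alternative values 26 changed, and the 4 named genes kept their sign and their side of the threshold in every setting that tested them (CA.PGAv.1.6.scaffold1656.7 was not tested with at least 10 counts in every library), with log2 fold changes between 6.69 and 7.004 for CA.PGAv.1.6.scaffold1231.6, between 2.89 and 3.31 for CA.PGAv.1.6.scaffold1656.7, between -3.66 and -2.21 for CA.PGAv.1.6.scaffold22.44 and between -2.37 and -2.16 for CA.PGAv.1.6.scaffold588.42, mock 0 h as the reference not counted. The 4 named genes were chosen by large changes in these same libraries, so their stability says nothing about other genes. A minimum of 10 counts in every library left 13396 genes to test. Of these, 1785 changed by a log2 fold change of at least 1 (791 higher, 994 lower). In the main fit it was 3183 of 18757 genes (1499 and 1684). The minimum takes out every gene with few counts in any library, and its part in the drop was not tested. By total counts alone, 283 genes were higher and 30 lower than mock at 24 h and further from it than at all earlier times, in place of 186 and 78, and the split of all calls was 5376 higher and 3630 lower, which is 59.7% higher in place of 50.6%. With 1 library left out the number of such higher genes ranged from 123 to 341, and the cause was not tested. The count of all differing genes ranged from 8062 to 8409 in these fits and was 7437 with the 6 libraries of 24 h alone, 8777 with DESeq2 and 8285 after thinning. Against mock 0 h, 62.5% of the calls were kept and 377 turned round.

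ET and mock libraries of the same number showed no shared deviation, as the correlations of their deviations from the group means were -0.171, -0.007 and -0.213, and the numbers were not taken to pair the samples. With the replicate block 9055 genes differed, in place of 8967, and 99.3% of the calls were kept in the same direction.

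Depth limits the genes of the lowest levels, where large fold changes rest on few counts.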
